A study of Homo sapiens with 5 samples.

Results

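In MOLT-4 cells, 1565 of 13181 H3K4me3 peaks shared no base with any RUNX1 peak (11.9%, 95% Wilson interval 11.3 to 12.4%). These 1565 peaks are described here. They were chosen by comparing the deposited H3K4me3 and RUNX1 peak lists on chromosomes 1 to 22 and X, so their lack of a RUNX1 peak is the selection itself and not a finding. The remaining 11616 H3K4me3 peaks shared at least 1 base with RUNX1. "Without RUNX1" means without a listed RUNX1 peak, since the lists give no read depth or score and cannot show that a site was unbound.

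The series profiled chromatin of MOLT-4, a long-established line from a human T cell acute lymphoblastic leukaemia, by CUT&RUN, in which an antibody directs a nuclease to a protein or histone mark and the released fragments are sequenced. All 5 samples came from this 1 line grown in serum-containing medium, with no genotype or treatment contrast: 1 SMA4-labelled library, 1 for H3K4me3, 1 for RUNX1, and 2 IgG controls whose titles call them input. The control libraries were not analysed here. With 1 library per antibody there is no replicate error, no comparison below carries a test, and every interval covers counting error only, with neighbouring peaks not independent of each other.

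Trimethylation of lysine 4 on histone H3 marks nucleosomes around the starts of active and poised genes, and broad stretches of it are typical of strongly expressed cell identity genes. RUNX1 is a runt-domain transcription factor that, with its partner CBFB, binds promoters and enhancers in blood cells and is required for definitive blood formation and for thymocyte development. In T cell leukaemia it acts together with other factors of the T lineage. The SMA4 label does not spell out its target, so it is used as given.

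Most H3K4me3 peaks without RUNX1 were narrow. Their median width was 221 bp (quartiles 179 and 329 bp), against 1066 bp (quartiles 489 and 1612 bp) for the peaks with RUNX1. The 95% order-statistic intervals of the 2 medians were 213 to 228 bp and 1047 to 1083 bp. Of the peaks without RUNX1, 542 (34.6%) were exactly 179 bp wide, the minimum of the list, against 440 of 11616 (3.79%) of the peaks with RUNX1. The background over all 13181 H3K4me3 peaks was 7.45%. Width is tied to the selection, because a wide peak meets a RUNX1 peak more readily, so these values are a description. In bases, the peaks without RUNX1 made up 490 kb, which was 3.51% of all bases under H3K4me3 peaks.

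**Figure D1:**
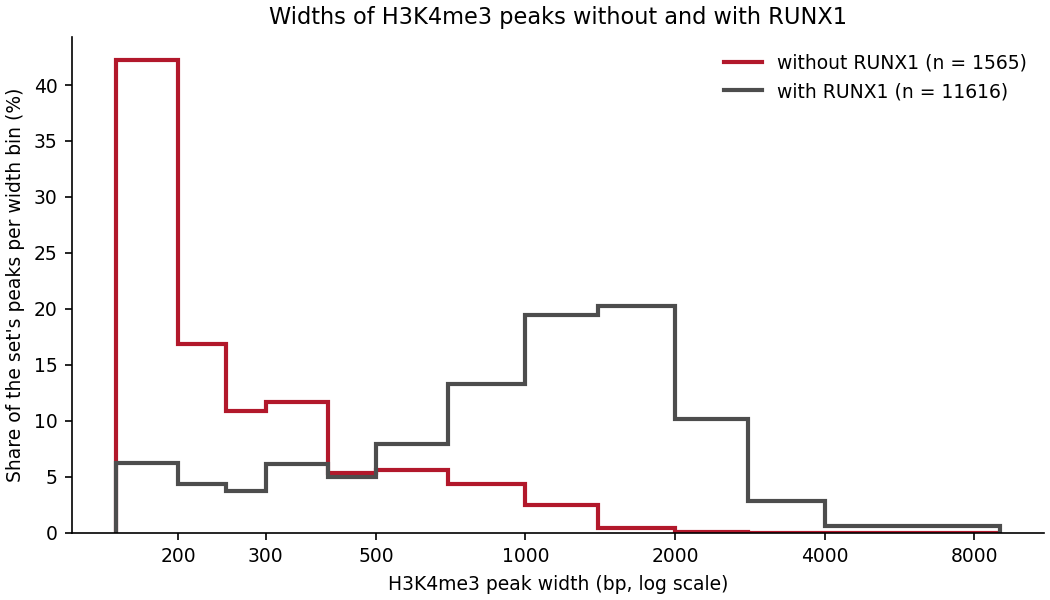
Share of peaks per width bin (y axis, percent of the set) against H3K4me3 peak width (x axis, bp, log scale, bins of unequal size) for the 1565 peaks without RUNX1 and the 11616 peaks with RUNX1. The peaks without RUNX1 pile up at the narrow end, with a median of 221 bp against 1066 bp for the peaks with RUNX1.

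The share of peaks without RUNX1 was lower at each step in width. It was 55.2% (542 of 982) at the minimum width and 31.1% (553 of 1779) from there up to 299 bp. From 300 to 499 bp it was 17.1% (267 of 1558), and from 500 to 999 bp it was 5.96% (156 of 2616). At 1000 bp and over, 47 of 6246 peaks lacked RUNX1 (0.752%, 95% interval 0.566 to 0.999%). Altogether 203 of the peaks without RUNX1 reached 500 bp (13.0%).

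The edge of the rule was crossed by small differences. Peaks just inside it included 3 that touched a RUNX1 peak with no base between them, and 11 that lay at most 10 bases away, where 1 base means touching. Just outside it, 1 peak shared a single base with RUNX1 and 9 shared at most 10. Within 100 bases of the edge there were 113 peaks on the inner side and 135 on the outer side. Of the 3 touching peaks, the widest lay on chromosome 19 from 56154796 to 56155908 (1113 bp). The peak that shared 1 base lay on the same chromosome from 33667104 to 33667469 (366 bp).

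The absence of a shared base did not mean that RUNX1 was far away. The median distance to the nearest RUNX1 peak was 1.34 kb (quartiles 0.307 and 26.9 kb). RUNX1 lay within 1 kb of 734 peaks (46.9%), from 1 to 10 kb away for 285 (18.2%), from 10 to 100 kb for 382 (24.4%) and beyond 100 kb for 164 (10.5%). Peaks farther from RUNX1 were more often at the minimum width: 141 of the 734 nearest (19.2%), 42.8% and 48.2% in the middle classes, and 95 of the 164 farthest (57.9%). The nearest RUNX1 peak had a median width of 757 bp where it lay within 1 kb and of 616 bp where it lay beyond 100 kb, around the median of 645 bp for the whole RUNX1 list.

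For 657 peaks without RUNX1 (42.0%, 95% interval 39.6 to 44.4%) a wider H3K4me3 peak lay within 1 kb, against 1410 of the 11616 peaks with RUNX1 (12.1%) and a background of 15.7% of all H3K4me3 peaks. At 1 to 10 kb the shares were close, with 118 peaks without RUNX1 (7.54%) and 1085 with it (9.34%). The wider peak lay at 10 to 100 kb for 422 peaks without RUNX1 (27.0%) and 4258 with it (36.7%). It lay beyond 100 kb for 368 without RUNX1 (23.5%) and 4840 with it (41.7%). The background was 39.7%, which also counts peaks with no wider one on their chromosome. The peaks with RUNX1 are wider themselves, so fewer peaks can count as wider neighbours for them.

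Within width classes the difference took both directions. At 300 to 499 bp, 154 of 267 peaks without RUNX1 had a wider neighbour within 1 kb (57.7%, 95% interval 51.7 to 63.5%), against 386 of 1291 with RUNX1 (29.9%, 27.5 to 32.5%). From 500 to 999 bp the shares were 25.6% (40 of 156) without RUNX1 and 11.3% (279 of 2460) with it. At the minimum width the order was the other way round, with 155 of 542 peaks without RUNX1 (28.6%, 25.0 to 32.5%) and 171 of 440 with RUNX1 (38.9%, 34.4 to 43.5%). Minimum-width peaks without RUNX1 were also more often solitary: 164 of 542 (30.3%, 26.5 to 34.3%) lay over 100 kb from any other H3K4me3 peak, against 43 of 440 (9.77%, 7.34 to 12.9%) with RUNX1. The background for that distance was 15.6% of all H3K4me3 peaks. Above the minimum width up to 299 bp the shares were 15.7% without RUNX1 and 8.56% with it. They were 8.61% and 9.06% from 300 to 499 bp, and 8.33% and 13.9% from 500 to 999 bp. At 1000 bp and over they were 14.9% and 18.6%.

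**Figure D2:**
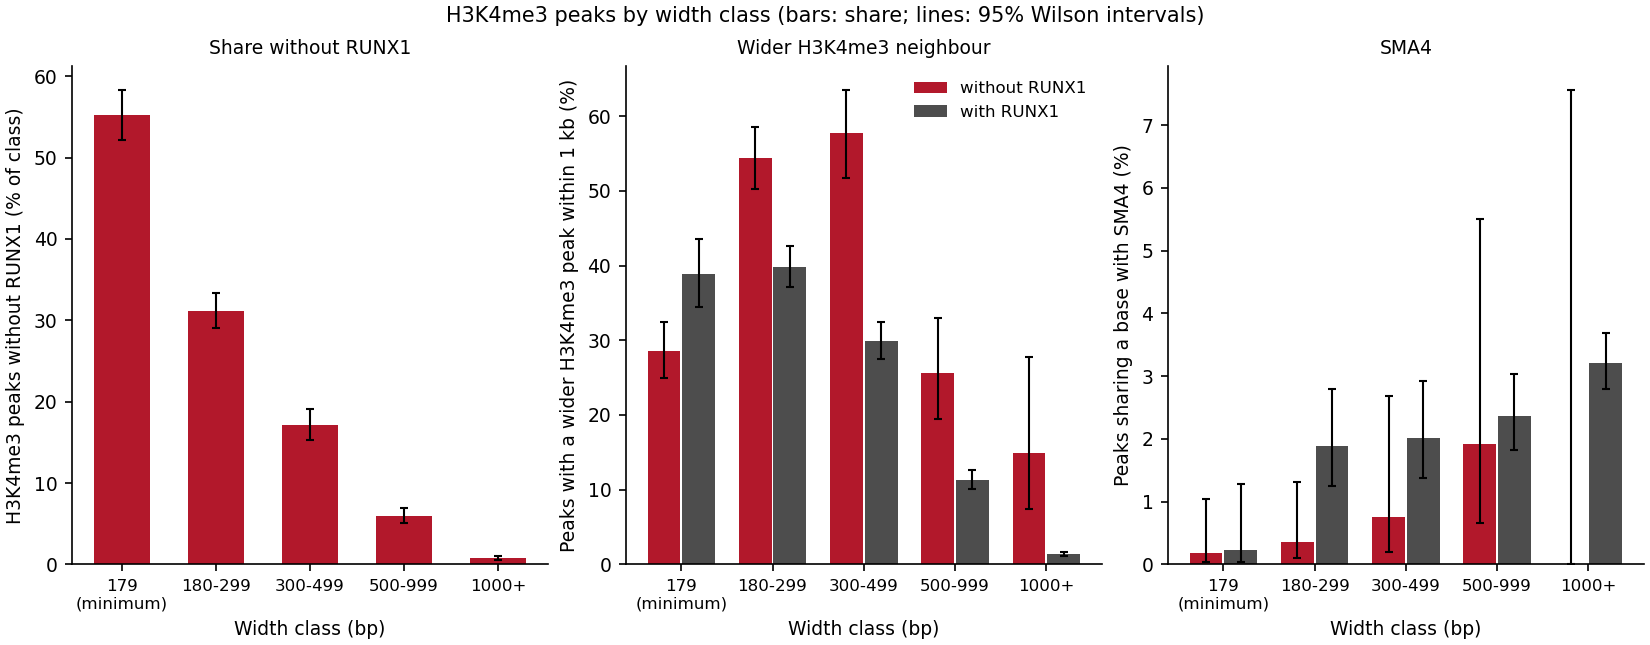
H3K4me3 peaks in 5 width classes (x axis, bp): share of each class without RUNX1 (left, percent), share with a wider H3K4me3 peak within 1 kb (middle, percent) and share meeting an SMA4 peak (right, percent), with 95% Wilson intervals as lines. The share without RUNX1 falls from 55.2% at the minimum width to 0.752% at 1000 bp and over, and the middle panel changes order between the minimum width and the wider classes.

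Both distances together gave 3 sets, drawn after the distances had been seen: 657 peaks beside a wider H3K4me3 peak, 173 beside RUNX1 but not beside a wider H3K4me3 peak, and 735 beside neither, with "beside" meaning within 1 kb. Their median widths were 235 bp, 352 bp and 180 bp. Peaks at the minimum width made up 23.6% of the first set (155 of 657), 12.1% of the second (21 of 173) and 49.8% of the third (366 of 735).

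**Figure D3:**
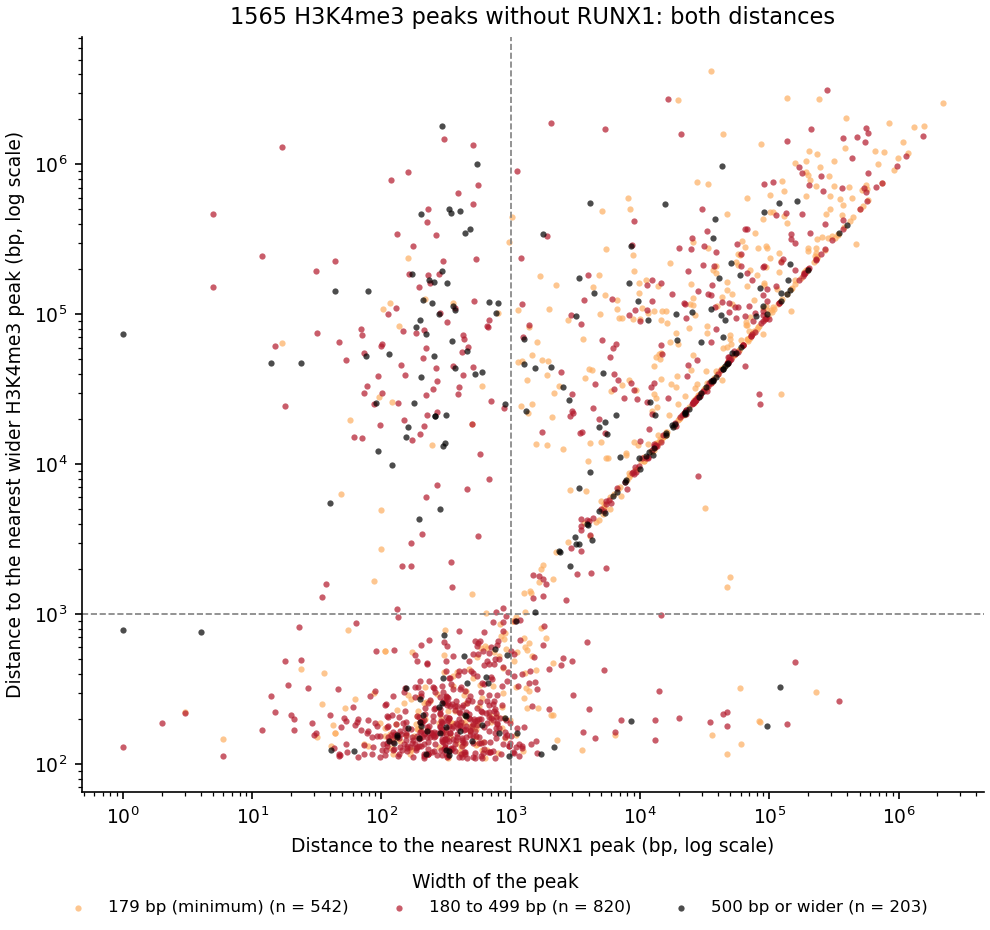
Distance to the nearest wider H3K4me3 peak (y axis, bp, log scale) against distance to the nearest RUNX1 peak (x axis, bp, log scale) for each of the 1565 peaks without RUNX1, coloured by width, with dashed lines at 1 kb. A dense group of 561 peaks lies within 1 kb of both, and a diagonal line holds peaks whose nearest RUNX1 peak sits at their nearest wider H3K4me3 peak.

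The 657 peaks of the first set lay at the flanks of wider H3K4me3 peaks, and 47 of them reached 500 bp. The widest had 2435 bp. The distance to the wider peak had a median of 190 bases (quartiles 147 and 302), and 441 of 657 lay within 250 bases (67.1%). The smallest distance was 110 bases, and no peaks in the H3K4me3 list lay closer together than that. The 641 wider neighbours were typically 1175 bp wide (median; quartiles 661 and 1786 bp). They were a median of 4.39 times as wide as the flanking peak. Flanking peaks lay on the higher-coordinate side in 320 cases and on the lower-coordinate side in 337. Of the 641 neighbours, 625 had 1 such peak and 16 had 2 or more, and 14 of these 16 had them on both sides. Flanking peaks with RUNX1 were not counted here.

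Most of their wider neighbours carried RUNX1. Of the 657, 586 had a neighbour that shared a base with RUNX1 (89.2%, 95% interval 86.6 to 91.3%), beside 88.1% of all H3K4me3 peaks. For all 2067 H3K4me3 peaks with a wider one within 1 kb, that wider peak shared a base with RUNX1 in 92.5%, above that interval. The 88.1% is not matched for width, since the neighbours had a median width of 1175 bp. Among all H3K4me3 peaks, 5.96% from 500 to 999 bp and 0.752% at 1000 bp and over lacked RUNX1. Narrower classes had higher shares, with 17.1% from 300 to 499 bp and 31.1% above the minimum width up to 299 bp. Some neighbours were that narrow, and the neighbours were not split by width. Counted per flanking peak, the neighbour lacked RUNX1 for 71 of the 657 (10.8%). For 551 (83.9%) the RUNX1 peak nearest to the flanking peak was one lying on that neighbour. A RUNX1 peak reached into the stretch between the flanking peak and its neighbour in 175 cases (26.6%). RUNX1 lay within 1 kb of 561 of the 657 (85.4%). When H3K4me3 peaks within 1 kb of each other were joined into regions, 693 of the 1565 peaks (44.3%) fell into a region that held RUNX1, and 832 of 11069 regions (7.52%) had none. Joining was a step chosen after seeing the data.

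Seen from the flanking peaks as a class, lack of RUNX1 was not the rule. Of 2067 H3K4me3 peaks of any kind within 1 kb of a wider one, 657 lacked RUNX1 (31.8%, 95% interval 29.8 to 33.8%). For peaks over 1 kb from a wider one the share was 908 of 11114 (8.17%). The order depended on width. At the minimum width, 155 of 326 peaks beside a wider one lacked RUNX1 (47.5%, 95% interval 42.2 to 53.0%), against 387 of 656 elsewhere (59.0%, 55.2 to 62.7%). From 300 to 499 bp the shares were 28.5% beside a wider peak (154 of 540, 24.9 to 32.5%) and 11.1% elsewhere (113 of 1018, 9.31 to 13.2%).

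The 173 peaks beside RUNX1 only were the widest of the 3 sets, with a median of 352 bp (quartiles 234 and 557 bp), and 53 of them reached 500 bp. Their median distance to RUNX1 was 222 bases, and their median distance to a wider H3K4me3 peak was 55.7 kb. For 5 of them the nearest RUNX1 peak lay on that wider H3K4me3 peak. In the other 168 it did not. The definition of the set nearly fixes this, because RUNX1 had to lie within 1 kb and the wider peak beyond 1 kb.

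Among the 735 peaks beside neither, the median distance was 28.0 kb to RUNX1 and 68.4 kb to a wider H3K4me3 peak. In 282 of them (38.4%) the nearest RUNX1 peak was on the nearest wider H3K4me3 peak, which is the diagonal in the plot of both distances. There were 521 peaks over 10 kb from both, and 158 over 100 kb from both. Of those 158, 93 were at the minimum width (58.9%, 95% interval 51.1 to 66.2%) and 11 reached 500 bp. The read support behind minimum-width peaks is unknown, and the part played by the calling threshold in these solitary peaks was not tested.

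The surroundings of minimum-width peaks differed in peak density. The density of RUNX1 peaks is tied to the selection, because a peak among many RUNX1 peaks meets one more readily. These values are therefore a description. Within 100 kb, and leaving out RUNX1 peaks on the H3K4me3 peak itself, there was a median of 3 RUNX1 peaks (quartiles 1 and 7) for the 542 peaks without RUNX1, against 7 (quartiles 3 and 11) for the 440 with RUNX1. Other H3K4me3 peaks in the same window had a median of 1 around the peaks without RUNX1 and 3 around those with it. Above the minimum width up to 299 bp, the medians were 5 RUNX1 peaks around the peaks without RUNX1 and 7 around those with it. They were 5 and 6 from 300 to 499 bp, and 6 and 5 from 500 to 999 bp. At 1000 bp and over, the medians were 5 RUNX1 peaks around the 47 peaks without RUNX1 and 4 around the 6199 with it. Over all widths the median was 5 in either set.

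The widest H3K4me3 peak without RUNX1 spanned 2435 bp on chromosome 14 from 99733031 to 99735465. It lay 161 bases from a still wider peak at 99735626 to 99738779 (3154 bp), which carried RUNX1, and 815 bases from the nearest RUNX1 peak. A second, narrow peak without RUNX1 lay within 5 kb of it. The RUNX1 peaks on this broad stretch of the mark lay on the wider peak, as the selection requires. They are drawn in the map of the 4 places.

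The second widest peak lay on chromosome 6 from 27729221 to 27731019 (1799 bp), 3.40 kb from RUNX1 and 6.94 kb from a wider H3K4me3 peak. Next in width was a 1597 bp peak on chromosome 20 from 3189470 to 3191066, at 4.10 kb from RUNX1. Its nearest wider H3K4me3 peak was 555 kb away, so it was the widest of its neighbourhood. The fourth, on chromosome 14 from 103243797 to 103245385 (1589 bp), was 59.6 kb from RUNX1 and 183 kb from a wider peak.

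The fifth, on chromosome 22 from 25960976 to 25962476 (1501 bp), had RUNX1 at 550 bases, its nearest other H3K4me3 peak at 116 kb and its nearest wider one at 1.01 Mb. On chromosome 2, a peak from 242667439 to 242668934 (1496 bp) had RUNX1 at 904 bases and 2 further H3K4me3 peaks without RUNX1 within 5 kb. On chromosome 10, a peak from 30636747 to 30638211 (1465 bp) stood apart from both kinds of peak. Its nearest RUNX1 peak was 43.4 kb away, its nearest H3K4me3 peak of any width 435 kb and its nearest wider one 969 kb.

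The last 3 of the 10 widest lay on chromosome 15 from 44038446 to 44039865 (1420 bp), on chromosome 17 from 80009573 to 80010878 (1306 bp) and on chromosome 3 from 49202609 to 49203899 (1291 bp). A peak on chromosome X from 102509015 to 102510305 was equally wide and came after it by chromosome order. The 10 peaks lay on 9 chromosomes. RUNX1 was within 1 kb of 3 of them and over 10 kb from 4, and none met an SMA4 peak. The nearest wider H3K4me3 peak carried RUNX1 for each of the 10, and for 91.5% of all 1565, beside 88.1% of all H3K4me3 peaks. Only 0.752% of H3K4me3 peaks of 1000 bp and over lacked RUNX1, so a neighbour wider than these 10 could hardly lack it. An annotation of the hg19 genome was not used here, so no gene, promoter or sequence is given for these peaks.

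All 47 peaks of 1000 bp or more had a median distance of 6.48 kb to RUNX1 and 44.2 kb to a wider H3K4me3 peak. RUNX1 was within 1 kb of 11 and over 10 kb from 19, and 1 was over 100 kb from it. They were spread over 18 chromosomes.

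At the other extreme, the 10 peaks farthest from RUNX1 were all narrow, from 179 to 284 bp, with 7 of the 10 at the minimum width. The farthest, on chromosome 3 from 79229828 to 79230006 (179 bp), was 2.20 Mb from RUNX1 and 2.58 Mb from any other H3K4me3 peak. Next came a peak on chromosome 9 from 23809559 to 23809737 (179 bp, 1.57 Mb from RUNX1) and one on chromosome 5 from 23013098 to 23013338 (241 bp, 1.55 Mb). Another 2 lay on chromosome 3, from 191547311 to 191547489 (1.32 Mb from RUNX1) and from 65350607 to 65350785 (0.920 Mb).

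Chromosome 14 held 2 of the farthest, from 41319420 to 41319598 (1.08 Mb from RUNX1) and from 83108797 to 83108975 (0.990 Mb). The others were on chromosome 6 from 55212591 to 55212769 (1.19 Mb), on chromosome 2 from 212476235 to 212476514 (1.13 Mb) and on chromosome 16 from 52111059 to 52111342 (0.977 Mb). The chromosome 2 peak was the only one of the 10 that met an SMA4 peak.

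Distance from a wider H3K4me3 peak picked out other sites. The farthest, on chromosome 9 from 66458913 to 66459091 (179 bp), was 4.19 Mb from any wider H3K4me3 peak, yet only 35.1 kb from RUNX1 and 35.2 kb from another H3K4me3 peak. The next lay on chromosome 4 from 60964636 to 60964939 (304 bp, 3.12 Mb), on chromosome 16 from 34657799 to 34657977 (179 bp, 2.77 Mb) and on chromosome 12 from 85711772 to 85712125 (354 bp, 2.72 Mb). The fifth was a 179 bp peak on chromosome 8 from 138553767 to 138553945 (2.71 Mb).

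Most peaks without RUNX1 had no other such peak near them. They are 11.9% of the list, and runs were not counted for other H3K4me3 peaks, so the counts below do not measure grouping. An H3K4me3 peak of any kind lay within 1 kb of 769 of them (49.1%), against 3110 of the 11616 with RUNX1 (26.8%). With neighbours joined at up to 12.5 kb, 1345 of the 1565 (85.9%) had no other such peak beside them, 89 pairs held 178, and 13 runs of 3 or more held the remaining 42. The longest run had 5 peaks on chromosome 5 from 179048886 to 179061085, with widths of 211, 221, 265, 283 and 195 bp. Of these, 4 flanked a single 1729 bp H3K4me3 peak that carried RUNX1, 3 of them on one side at 978, 626 and 186 bases from RUNX1 and 1 on the other side at 120 bases. The fifth lay 9.06 kb from RUNX1.

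A run of 4 on chromosome X from 70323887 to 70330120 had widths of 885, 179, 179 and 353 bp. Its peaks lay 40, 87, 807 and 1065 bases from RUNX1. A run of 3 on chromosome 19 from 14544330 to 14563144 held no H3K4me3 peak with RUNX1 and no RUNX1 peak within its span, and its peaks were 0.310, 7.09 and 18.9 kb from RUNX1. A run of 3 on chromosome 16 from 58230934 to 58240192 lay between 19.3 and 28.3 kb from RUNX1. The other run named by the same rule, on chromosome 19 from 56154796 to 56168330, held the touching peak of 1113 bp and peaks of 959 and 219 bp, mixed with 3 H3K4me3 peaks that carried RUNX1.

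**Figure D4:**
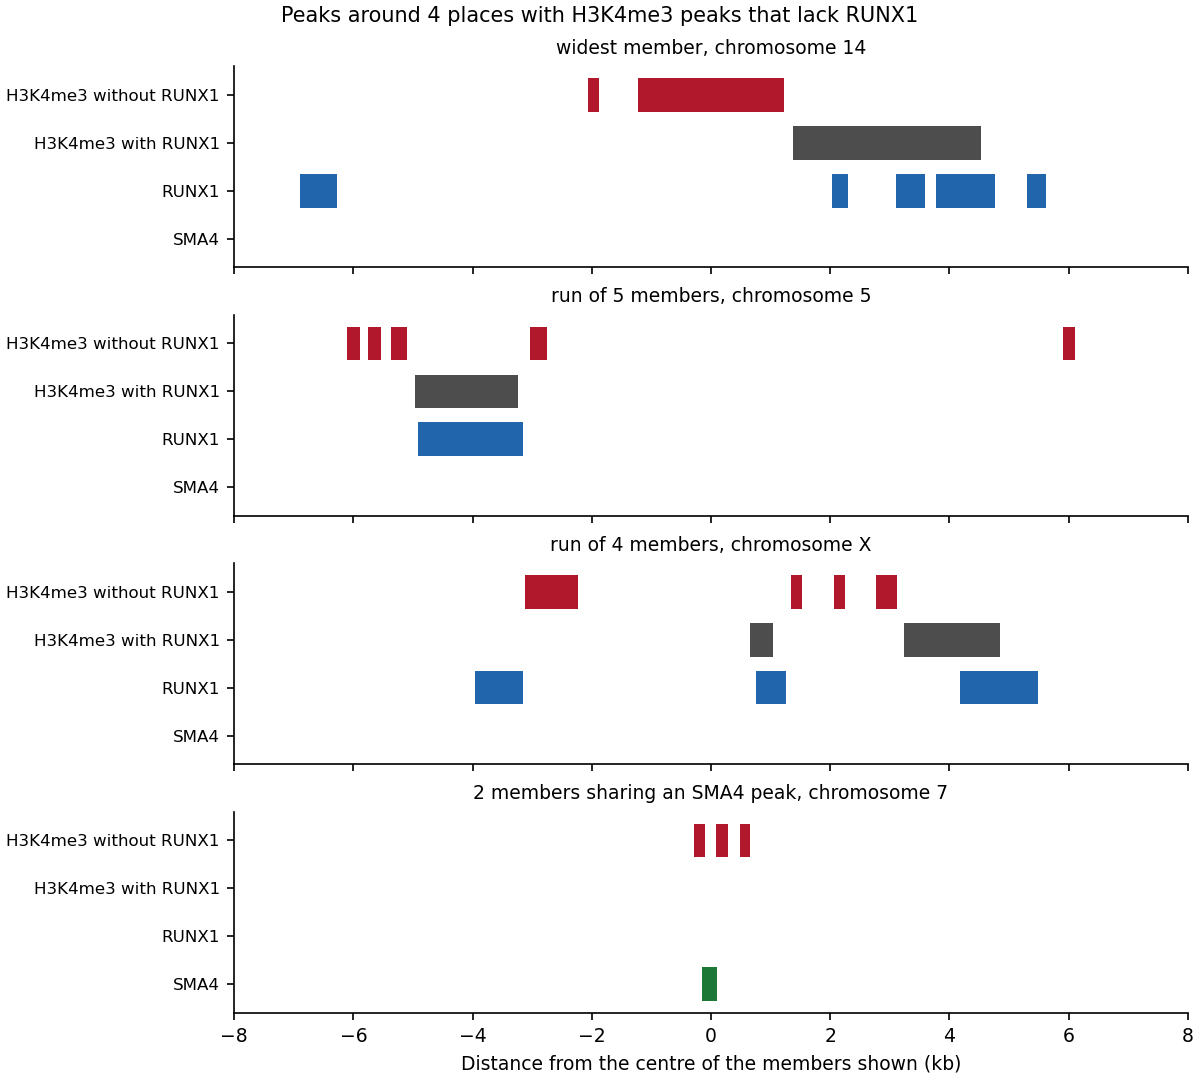
Peaks of the 3 lists around 4 places, drawn to scale against distance from the centre of the peaks shown (x axis, kb), with H3K4me3 peaks without RUNX1 in the top lane of each panel, then H3K4me3 peaks with RUNX1, RUNX1 peaks and SMA4 peaks. The 2435 bp peak on chromosome 14 adjoins a 3154 bp peak that carries RUNX1, 4 of the 5 peaks of the chromosome 5 run flank 1 such peak, and 2 of the 3 chromosome 7 peaks share an SMA4 peak with no RUNX1 in view.

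Every chromosome used held some of these peaks, and their number followed the number of H3K4me3 peaks. Counts ran from 21 on chromosome 21 to 132 on chromosome 1, and density from 0.191 per Mb on chromosome 13 (22 peaks) to 1.79 per Mb on chromosome 19 (106 peaks), with a median of 0.477 over 23 chromosomes. Chromosome 19 also had the most H3K4me3 peaks per Mb, at 16.4. As a share of H3K4me3 peaks, those without RUNX1 ranged from 8.98% on chromosome 13 to 17.6% on chromosome X. The interval of 19 of the 23 chromosomes held the genome-wide 11.9%. Those of chromosome X and chromosome 7 (15.3%, 12.7 to 18.3%) lay above it. Those of chromosome 1 (9.94%, 8.44 to 11.7%) and chromosome 17 (9.44%, 7.62 to 11.6%) lay below it. Within 5 Mb of a chromosome end lay 249 of the peaks without RUNX1 (15.9%, 95% interval 14.2 to 17.8%) and 1501 of the peaks with RUNX1 (12.9%, 12.3 to 13.5%).

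Chromosome X stood apart through its wider peaks. Of its 421 H3K4me3 peaks, 74 lacked RUNX1 (17.6%, 95% interval 14.2 to 21.5%). Among its peaks under 300 bp the share was 39.8% (33 of 83), close to the 39.7% of all chromosomes together. Among its peaks of 300 bp or wider it was 12.1% (41 of 338, 9.07 to 16.0%), against 4.51% of all chromosomes together (470 of 10420) and a range of 0.538 to 5.63% over chromosomes 1 to 22. At 500 bp or wider it was 7.61% on X (21 of 276, 5.03 to 11.4%) and 2.12% on chromosomes 1 to 22 (182 of 8586, 1.84 to 2.45%). At 1000 bp or wider the intervals overlapped, with 3 of 162 on X (1.85%, 0.632 to 5.30%) and 44 of 6084 elsewhere (0.723%, 0.539 to 0.969%).

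The median width of peaks without RUNX1 was 314 bp on X and 218 bp on chromosomes 1 to 22, and 14.9% and 35.6% of them were at the minimum width. RUNX1 lay within 1 kb of 45 of the 74 on X (60.8%) and of 689 of the 1491 elsewhere (46.2%). Peaks of 300 bp or wider with no RUNX1 within 1 kb were 20 of 338 on X (5.92%, 95% interval 3.86 to 8.96%) and 176 of 10082 elsewhere (1.75%, 1.51 to 2.02%). After H3K4me3 peaks within 1 kb were joined, the share of regions without RUNX1 was 9.70% on X (32 of 330, 6.95 to 13.4%) and 7.45% elsewhere (800 of 10739, 6.97 to 7.96%), and the intervals overlapped.

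RUNX1 peaks were also sparser on X, at 5.83 per Mb and 2.15 per H3K4me3 peak, against 2.81 per H3K4me3 peak on chromosomes 1 to 22, and they were narrower, with a median of 581 bp against 647 bp. Chromosome 19 had 1.64 RUNX1 peaks per H3K4me3 peak, with 26.8 RUNX1 and 16.4 H3K4me3 peaks per Mb. Its share without RUNX1 at 300 bp or wider was 4.46%. The part of RUNX1 peak density and of chromosome copy number in the X share was not tested. The comparison of X with the rest was chosen after the shares by chromosome had been seen. The widest of the X peaks, at 102509015 to 102510305 (1291 bp), was 38.2 kb from RUNX1, the next at 74375423 to 74376539 (1117 bp) was 15.6 kb from it, and the third at 154841786 to 154842863 (1078 bp) was 396 kb from it.

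**Figure D5:**
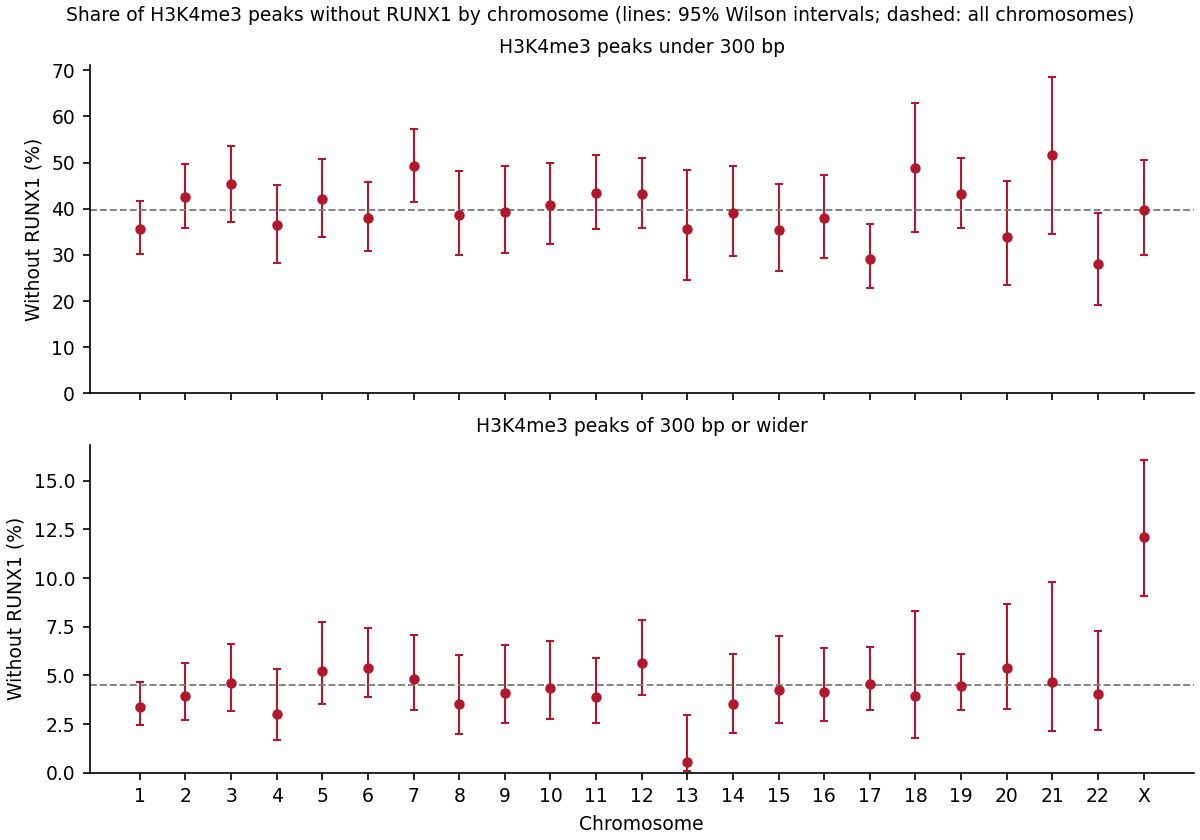
Share of H3K4me3 peaks without RUNX1 (y axis, percent) by chromosome (x axis) for peaks under 300 bp (top) and of 300 bp or wider (bottom), with points for the share, lines for 95% Wilson intervals and a dashed line for all chromosomes together. Chromosome X, at 12.1% in the lower panel, lies above chromosomes 1 to 22, which reach 5.63% there, and is at 39.8% in the upper panel, beside 39.7% overall.

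SMA4, whose list was not used to select the peaks, rarely met them. Of 1475 SMA4 peaks, 503 shared no base with RUNX1, so most SMA4 peaks lay at RUNX1. H3K4me3 peaks with RUNX1 therefore meet SMA4 more readily. The shares below are tied to the selection in this way and are a description. Of 1565 H3K4me3 peaks without RUNX1, 8 shared a base with an SMA4 peak (0.511%, 95% interval 0.259 to 1.01%), against 307 of 11616 with RUNX1 (2.64%, 2.37 to 2.95%). The background over all H3K4me3 peaks was 2.39%. With SMA4 counted up to 1 kb away the shares were 1.41% (22 of 1565) without RUNX1 and 3.38% (393 of 11616) with it, over a background of 3.15%.

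Among the peaks with RUNX1, SMA4 overlap was higher in wider classes, so the shares were also compared within classes. At the minimum width, SMA4 met 1 of 542 peaks without RUNX1 and 1 of 440 with it. From there up to 299 bp it met 2 of 553 without RUNX1 (0.362%, 95% interval 0.0992 to 1.31%) and 23 of 1226 with it (1.88%, 1.25 to 2.80%), with slightly overlapping intervals. From 300 to 499 bp the counts were 2 of 267 (0.749%) and 26 of 1291 (2.01%), and from 500 to 999 bp they were 3 of 156 (1.92%) and 58 of 2460 (2.36%), with overlapping intervals in both classes. None of the 47 peaks of 1000 bp or more without RUNX1 met SMA4, which allows a share of up to 6.38%, against 199 of 6199 with RUNX1 (3.21%). The SMA4 list came from another batch folder and peak-calling pipeline than the other lists, so its reach cannot be compared with theirs.

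The 8 peaks met 7 SMA4 peaks, and 1 of those SMA4 peaks also met RUNX1 beyond the edge of the H3K4me3 peak. The widest of the 8, on chromosome 1 from 65533894 to 65534772 (879 bp), enclosed an SMA4 peak at 65534170 to 65534336 and lay 765 bases from RUNX1. On chromosome 2, a peak from 86946856 to 86947246 (391 bp) lay 21 bases from RUNX1, and its SMA4 peak at 86946993 to 86947592 ran across to that RUNX1 peak.

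Chromosome 7 held 3 of the 8. A peak from 92746938 to 92747499 (562 bp) met an SMA4 peak at 92747345 to 92747560, 89.9 kb from RUNX1. After a stretch of 29.2 kb, peaks from 92776739 to 92776917 (179 bp) and from 92777108 to 92777309 (202 bp) shared 1 SMA4 peak at 92776876 to 92777128, which bridged the stretch between them. RUNX1 was 84.4 kb and 84.0 kb away. The remaining 3 lay on chromosome 3 from 88080708 to 88081253 (546 bp, 12.0 kb from RUNX1) and from 165523957 to 165524269 (313 bp, 33.0 kb), and on chromosome 2 from 212476235 to 212476514, the peak 1.13 Mb from RUNX1 described above. Of 503 SMA4 peaks without RUNX1, 11 met any H3K4me3 peak. The matching count for SMA4 peaks with RUNX1 is not given here, so this number has no background beside it.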

How the data were processed

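Peak lists of 3 CUT&RUN libraries were used, each with 4 columns (chromosome, start, end and a running name) and no score. Their other values are peak positions as the authors deposited them. MACS2 made the H3K4me3 and RUNX1 lists, and cutruntools the SMA4 list at a q threshold of 0.01, per the file headers. MACS2 and SEACR, with the build hg19, stand in the submitters' processing notes. Neither the aligner nor the threshold behind the first 2 lists is stated there, and read depth is unknown, so no interval reflects it.

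Starts were made 1-based. Peaks sharing 1 base overlapped, and distances ran between nearest edges with touching peaks at 1 base, as in bedtools 2.31.1, against which the code (Python 3.11.15, pandas 2.3.3, NumPy 2.4.6, SciPy 1.17.1) was checked on simulated peaks. Chromosome lengths were those of hg19, and 0 peaks ended past them. Shares carry 95% Wilson intervals and medians 95% order-statistic intervals. A count of 0 was bounded at 3 counts.

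The peaks and lists described were chosen with earlier results of these data known. Named peaks were the 10 widest, the 10 farthest from RUNX1, the 5 farthest from a wider H3K4me3 peak, the 5 longest runs (ties by span) and those with SMA4. Peaks on X named for width and the 3 sets by position were chosen after their values had been seen. Planned steps on genes, gene lists and base composition were not run, because an hg19 genome and annotation were not used here. No test was run.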

Additional observations from a re-analysis of the deposited data

How the results depend on the processing

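Of 40 alternative values, 29 moved past the interval or the 1.5-fold range of the value reported. With RUNX1 required at the H3K4me3 midpoint there were 2782 peaks without it, with a median width of 375 bp, 140 bp to RUNX1, 36509 bp to a wider H3K4me3 peak and 1.51% with SMA4. With RUNX1 within 1 kb counted as shared there were 831 (187 bp wide, 23871 bp and 49813 bp away). Without minimum-width peaks there were 1023 (284 bp, 625 bp and 1576 bp). With only the RUNX1 peaks wider than the list median there were 3393 (337 bp, 21452 bp and 26650 bp). With only H3K4me3 peaks of at least 300 bp there were 470 (449 bp wide, 594 bp to RUNX1, 1.06% with SMA4). Requiring 50% of the shorter peak to be shared gave 1879 peaks, within the range, with a width of 237 bp and 621 bp to RUNX1. Between midpoints the distance to RUNX1 was 2037 bp. With neighbours at least 2 times as wide, the distance to them was 25488 bp. SMA4 within 1 kb gave 1.41%. Chosen after seeing the data, joining H3K4me3 peaks within 1 kb gave 832 regions without RUNX1, and leaving out peaks beside a wider one gave a width of 204 bp and 15504 bp to RUNX1. Each alternative by construction changes either the peaks counted or the measure taken on them. The distance to genes could not be varied, since no annotation was used. No paired analysis was possible because each antibody had 1 library, and for the same reason no replicate could be left out. The lists' unknown depth limits every statement about narrow peaks.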
